A study of Mus musculus with 24 samples.

Results

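The genes described here are P2ry2, Reep6, Dgat2, Ankrd6, Cited1, Tmem158 and Kcng1, 7 of the 21671 genes measured by RNA-seq in 24 libraries of 3T9 cells, an immortalised mouse fibroblast line. They were selected on their RPKM values, for large rises in cells with wild-type MycER over cells with empty vector or with the RA form of MycER. All 7 passed the filter on low values, which 12268 genes passed. Since the genes were chosen by WT, RA and EV libraries, their values in comparisons among those groups are descriptions and carry no test. Tests are given for cells with the HEA form, whose libraries took no part in the choice, although the EV and RA libraries they are set against did. Low EV and RA values in the choice can favour a rise of HEA over them, so those p-values depend in part on it.

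Each of the 8 groups held 3 libraries. The cells had been infected with BP-MycER-WT, BP-MycER-HEA, BP-MycER-RA or an empty vector (EV), and were kept in OHT (4-hydroxytamoxifen) for 8 h or 4 h. The EV cells received OHT as well, so cells without OHT are not part of any comparison. In MycER the transcription factor Myc carries the hormone-binding part of the oestrogen receptor, and OHT switches the fusion on. The sources used here give neither the promoter that drives the constructs nor whether the infected cells were pools or clones. Whether the 3 libraries of a group were separate cultures is not stated, so each p rests on a spread between samples that may be technical only.

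Myc binds DNA as a dimer with Max. It touches the bases of a short motif, the E-box, and it also touches the DNA backbone whatever the sequence. In the published description of these mutants, HEA has alanines in place of residues that contact the bases of the E-box, and RA has alanines in place of arginines that contact the backbone. The series asks how both kinds of contact are required for gene regulation by Myc. The 7 genes have unlike products. P2ry2 encodes a receptor for extracellular ATP and UTP that signals through Gq and calcium. Kcng1 encodes a potassium channel subunit that is silent unless it joins a subunit of another family. The product of Tmem158 is a membrane protein described as induced during Ras-driven senescence. Reep6 encodes a protein of the endoplasmic reticulum from a family that shapes its membrane, and Dgat2 an enzyme of the last step of triglyceride synthesis. Ankrd6 (Diversin) acts in Wnt and planar polarity signalling, and Cited1 encodes a transcriptional coregulator that binds CBP and p300.

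The start regions of these genes are shown because E-boxes near a start are where Myc is best known to act. RefSeq windows of GRCm38.p6, 250 bases before to 50 bases after an annotated start, were at hand for P2ry2, Ankrd6 and Cited1, and held 8 windows in all. Both strands were searched for the E-box CACGTG, for CACGCG (read CGCGTG on the other strand) and for CATGTG (read CACATG). P2ry2 is shown with a single CACGTG, Ankrd6 with a single CACGCG and Cited1 with a single CATGTG, each in capitals, with the rest in lower case and all written 5′ to 3′ on the gene's strand. The P2ry2 window lies at chr7:101011949-101012248 on the minus strand, the Ankrd6 window at chr4:32950777-32951076 on the minus strand and the Cited1 window at chrX:102251794-102252093 on the minus strand.
P2ry2: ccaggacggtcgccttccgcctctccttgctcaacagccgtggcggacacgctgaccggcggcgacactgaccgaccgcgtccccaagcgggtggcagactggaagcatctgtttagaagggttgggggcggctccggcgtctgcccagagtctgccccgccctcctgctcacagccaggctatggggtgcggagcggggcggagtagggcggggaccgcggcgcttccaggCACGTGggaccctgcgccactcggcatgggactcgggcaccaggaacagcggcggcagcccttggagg
Ankrd6: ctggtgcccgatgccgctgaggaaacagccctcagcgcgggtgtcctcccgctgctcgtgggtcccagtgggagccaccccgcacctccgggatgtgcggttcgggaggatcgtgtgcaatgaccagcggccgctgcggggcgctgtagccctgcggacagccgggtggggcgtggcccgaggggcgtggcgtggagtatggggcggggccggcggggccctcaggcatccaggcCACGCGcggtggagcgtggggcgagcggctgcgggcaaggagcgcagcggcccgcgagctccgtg
Cited1: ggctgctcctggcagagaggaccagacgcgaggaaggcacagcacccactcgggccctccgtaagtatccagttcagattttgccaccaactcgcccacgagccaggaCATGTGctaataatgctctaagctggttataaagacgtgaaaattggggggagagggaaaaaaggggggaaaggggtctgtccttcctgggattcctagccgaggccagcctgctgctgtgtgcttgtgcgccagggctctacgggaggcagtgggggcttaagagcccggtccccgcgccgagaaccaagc
The E-box of P2ry2 begins 18 bases before this start. The same E-box falls 37 bases after the start of the other P2ry2 window, which shares 245 bases with the one shown. The Ankrd6 CACGCG begins 15 bases before its start and the Cited1 CATGTG 142 bases before its start. Of all 32851 windows in the table, 7.15% held CACGTG, 9.27% held CACGCG and 14.2% held CATGTG. Among the 9032 tested genes with a window, these shares were 11.9%, 20.4% and 9.80%. The other 2 Ankrd6 windows and the other 2 Cited1 windows held none of the 3 motifs. A match is a string of letters and no evidence of binding.

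Recovered reads ran from 9818317 to 12788101 per library. Esr1, the gene of the oestrogen receptor, averaged 10.2 to 11.9 RPKM (reads scaled for gene length and library depth) in the groups with a MycER form, against 0.189 RPKM in EV cells at 8 h and 0.277 RPKM at 4 h. Myc RPKM averaged 38.8 in WT cells, 49.5 in HEA cells, 63.1 in RA cells and 58.2 in EV cells at 8 h. The summed RPKM of 11 fibroblast markers was 589 to 765 in every library. Of these, Thy1 and Lum stayed under 0.35 RPKM, and Dcn had 0.0476 to 1.22 RPKM. Epcam of epithelium, Emr1 of macrophages and Myod1 of muscle were listed at 0 in all libraries. Of the other macrophage markers, Cd68 had 7.399 to 15.4 RPKM, Cd14 5.22 to 13.04 RPKM and Csf1r 0.842 to 2.41 RPKM. Ptprc reached at most 0.204 RPKM and Aif1 at most 0.523 RPKM. The macrophage list summed at 8 h to 24.4 to 26.9 RPKM in WT cells, 19.8 to 22.7 RPKM in HEA cells, 19.6 to 21.3 RPKM in RA cells and 23.1 to 25.7 RPKM in EV cells. Of the adipocyte markers, Fabp4 had 1.46 to 6.29 RPKM, while Adipoq and Plin1 reached at most 0.0804 RPKM. The muscle list, 5 of whose 6 genes stayed under 1 RPKM in every library, moved with the MycER form. Its sum at 8 h was 2.03 to 2.84 RPKM in WT cells, 1.60 to 2.01 RPKM in HEA cells, 3.46 to 3.68 RPKM in RA cells and 3.64 to 4.26 RPKM in EV cells, most of it Acta1. The part of these lists in the results below was not tested. In bulk RNA of this kind, fewer expressing cells and less RNA per cell cannot be told apart.

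**Figure D1:**
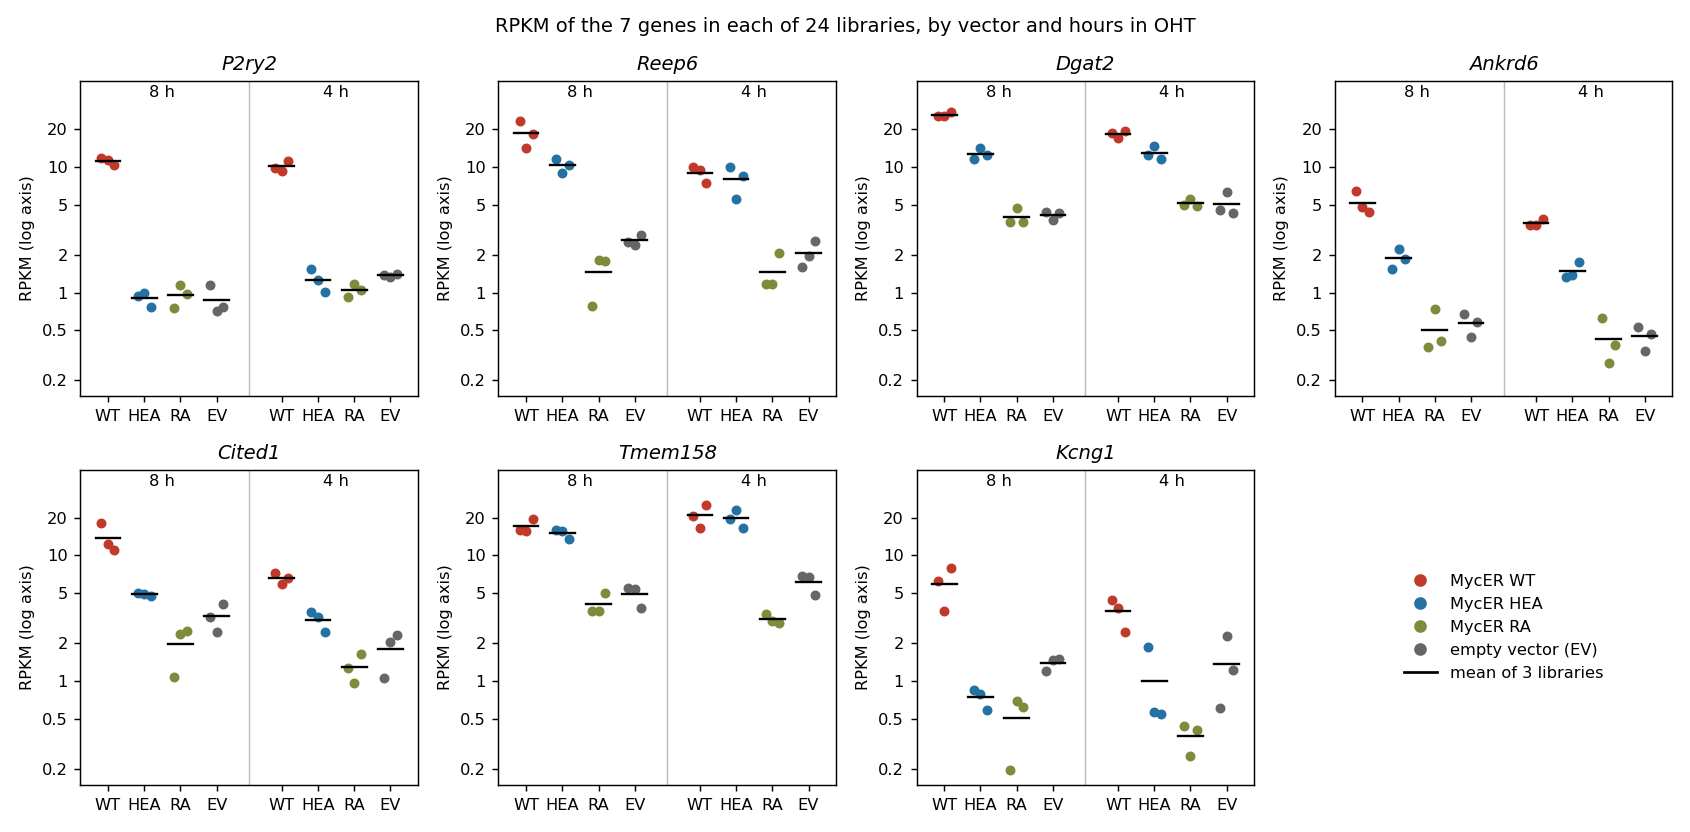
RPKM of each gene on a log axis in the 24 libraries, with 8 h on the left and 4 h on the right of each panel; points are libraries and bars are means of 3. P2ry2 stands at 9.28 to 11.7 RPKM in the 6 WT libraries and at 0.712 to 1.55 RPKM in the other 18, while Reep6, Dgat2, Ankrd6 and Tmem158 also stand above EV in HEA libraries.

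P2ry2 was high in WT cells and low in every other group. At 8 h its RPKM was 11.7, 11.3 and 10.3 in WT libraries, 0.943, 0.988 and 0.774 in HEA libraries, 0.755, 1.14 and 0.965 in RA libraries and 1.14, 0.712 and 0.768 in EV libraries. At 4 h it was 9.77, 9.28 and 11.1 in WT libraries, 1.55, 1.25 and 1.01 in HEA libraries, 0.917, 1.17 and 1.06 in RA libraries and 1.39, 1.33 and 1.397 in EV libraries. No library outside WT came near the WT range, and neighbouring groups overlapped throughout the rest of the order. The ratio of mean RPKM in WT over EV cells was 12.7 at 8 h and 7.33 at 4 h, from 292 to 412 recovered reads in WT libraries and 27 to 52 in EV libraries. On the log2(RPKM + 0.5) scale used for all fold changes below, WT over EV was 3.09 at 8 h and 2.49 at 4 h, with an SE of 0.14. The fit gives each gene a single SE for every comparison between groups. On this scale, only 1 of the 12268 genes had a larger fold change at 8 h, and 3 did at 4 h. Such ranks depend on the pseudocount of 0.5. By ratio of mean RPKM in WT over EV cells at 4 h, Ankrd6, at 7.95, was above P2ry2.

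No rise of P2ry2 was detected in HEA cells. HEA over EV was 0.04 at 8 h (95% interval -0.26 to 0.34, adjusted p = 0.849) and -0.09 at 4 h (-0.39 to 0.20, adjusted p = 0.627). HEA over RA was -0.05 at 8 h (-0.34 to 0.25, adjusted p = 0.819) and 0.18 at 4 h (-0.11 to 0.48, adjusted p = 0.305). The upper bounds lie far below the WT fold change, and they do not show that HEA, RA and EV cells were alike. The level also differed with time in EV cells, which averaged 0.875 ± 0.235 RPKM at 8 h and 1.37 ± 0.035 RPKM at 4 h (SD, n = 3 each).

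Kcng1 was likewise highest in WT cells, at lower levels and with wide spread. RPKM values at 8 h were 6.23, 3.60 and 7.88 in WT libraries, 0.856, 0.792 and 0.590 in HEA libraries, 0.198, 0.699 and 0.621 in RA libraries and 1.22, 1.49 and 1.51 in EV libraries. The 4 h values were 4.46, 3.85 and 2.46 in WT libraries, 1.88, 0.566 and 0.550 in HEA libraries, 0.439, 0.253 and 0.411 in RA libraries and 0.619, 2.28 and 1.22 in EV libraries. At 8 h the HEA and RA libraries were all below the EV libraries, whereas at 4 h the HEA and EV ranges overlapped. WT over EV was 1.69 at 8 h and 1.19 at 4 h with an SE of 0.33. Without the 3 libraries that lay farthest from their groups, among them the WT library at 2.46 RPKM and the EV library at 2.28 RPKM, the 4 h value was 1.75. RA over EV was -0.96 at 8 h and -1.02 at 4 h, on 5 to 18 recovered reads per RA library. The authors' deposited table, from a separate fit, gives smaller falls for RA over EV, of -0.43 at 8 h and -0.52 at 4 h. The pseudocount shrinks folds at this level, as the ratio of mean RPKM in RA over EV cells was 0.360 at 8 h and 0.268 at 4 h.

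HEA over EV for Kcng1 was -0.62 at 8 h (95% interval -1.31 to 0.08, adjusted p = 0.137) and -0.34 at 4 h (-1.03 to 0.36, adjusted p = 0.441). A fit on the HEA and EV libraries of 8 h alone gave the same -0.62 with an adjusted p of 0.0118, so the call rests on which libraries set the spread. The authors' deposited table gives -0.65 with an adjusted p of 0.0534 for the 8 h comparison. Against RA, HEA was at 0.34 at 8 h (adjusted p = 0.433) and 0.68 at 4 h (adjusted p = 0.101). None of the 11 other potassium channel subunit genes in its list passed the filter, and the highest reached 0.250 RPKM in any library.

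Tmem158 rose in HEA cells, to levels that overlapped those of WT cells. The 8 h libraries gave RPKM values of 16.0, 15.6 and 19.5 in WT libraries, 15.9, 15.6 and 13.5 in HEA libraries, 3.60, 3.63 and 5.08 in RA libraries and 5.53, 5.42 and 3.83 in EV libraries. RPKM values at 4 h were 20.5, 16.5 and 25.3 in WT libraries, 19.6, 23.2 and 16.5 in HEA libraries, 3.43, 3.04 and 2.91 in RA libraries and 6.81, 6.72 and 4.88 in EV libraries. WT and HEA ranges overlapped at both times, and both lay wholly above RA and EV. HEA over EV was 1.52 at 8 h (adjusted p = 5.71e-07) and 1.61 at 4 h (adjusted p = 3.79e-07), with an SE of 0.17. HEA over RA was 1.76 at 8 h (adjusted p = 9.77e-08) and 2.47 at 4 h (adjusted p = 1.32e-09). For comparison WT over EV was 1.70 at 8 h and 1.68 at 4 h, and WT over HEA was 0.17 (95% interval -0.19 to 0.53) and 0.07 (-0.29 to 0.43). At 4 h the RA libraries lay below the EV libraries, with RA over EV at -0.86, and at 8 h these groups overlapped.

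Reep6 was higher in both WT and HEA cells than in RA and EV cells. Its RPKM at 8 h was 23.1, 14.2 and 18.2 in WT libraries, 11.6, 8.98 and 10.3 in HEA libraries, 0.782, 1.81 and 1.78 in RA libraries and 2.52, 2.38 and 2.89 in EV libraries. Its RPKM at 4 h was 10.0, 9.46 and 7.47 in WT libraries, 10.0, 5.50 and 8.41 in HEA libraries, 1.18, 1.18 and 2.06 in RA libraries and 1.61, 1.97 and 2.57 in EV libraries. WT and HEA overlapped at 4 h and separated at 8 h, when all WT libraries were higher. HEA over EV was 1.80 at 8 h (adjusted p = 4.74e-06) and 1.71 at 4 h (adjusted p = 1.08e-05), with an SE of 0.24. Against RA, HEA was at 2.51 at 8 h (adjusted p = 8.09e-08) and 2.10 at 4 h (adjusted p = 9.57e-07). WT over EV was 2.59 at 8 h and 1.90 at 4 h. In WT over RA at 8 h, 3.30, Reep6 had the largest fold change of all 12268 genes.

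Dgat2 was highest in WT cells, intermediate in HEA cells and low in RA and EV cells. At 8 h its RPKM was 25.2, 25.2 and 27.1 in WT libraries, 11.6, 14.1 and 12.5 in HEA libraries, 3.66, 4.67 and 3.61 in RA libraries and 4.38, 3.74 and 4.27 in EV libraries. At 4 h it was 18.7, 16.8 and 19.3 in WT libraries, 12.4, 14.6 and 11.4 in HEA libraries, 4.97, 5.54 and 4.87 in RA libraries and 4.49, 6.34 and 4.27 in EV libraries. WT lay above HEA, and HEA above both RA and EV, at each time with no overlap. HEA over EV was 1.51 at 8 h (adjusted p = 1.29e-08) and 1.28 at 4 h (adjusted p = 1.67e-07), with an SE of 0.13. HEA over RA was 1.56 at 8 h (adjusted p = 1.02e-08) and 1.24 at 4 h (adjusted p = 2.64e-07). WT over EV was 2.51 at 8 h and 1.78 at 4 h, and RA over EV was -0.05 and 0.04. The summed RPKM of the adipocyte markers at 8 h was in another order, with 2.85 to 4.45 in WT cells, 1.63 to 5.48 in HEA cells, 3.69 to 6.41 in RA cells and 2.42 to 3.64 in EV cells. Of these 6 markers, 5 stayed under 1 RPKM in every library, so the sum was mostly Fabp4. Its relation to Dgat2 was not tested.

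Ankrd6, from a lower base than Dgat2, was also highest in WT cells, intermediate in HEA cells and low in RA and EV cells. RPKM values at 8 h were 6.39, 4.76 and 4.36 in WT libraries, 1.54, 2.21 and 1.85 in HEA libraries, 0.368, 0.738 and 0.411 in RA libraries and 0.678, 0.443 and 0.586 in EV libraries. The 4 h values were 3.44, 3.47 and 3.84 in WT libraries, 1.32, 1.38 and 1.74 in HEA libraries, 0.628, 0.277 and 0.383 in RA libraries and 0.536, 0.344 and 0.472 in EV libraries. RA and EV overlapped at both times, and HEA lay between them and WT. HEA over EV was 1.14 at 8 h (adjusted p = 2.62e-05) and 1.06 at 4 h (adjusted p = 7.77e-05), with an SE of 0.18. Against RA, HEA was at 1.24 at 8 h (adjusted p = 1.06e-05) and 1.10 at 4 h (adjusted p = 4.69e-05). WT over EV was 2.40 at 8 h and 2.11 at 4 h. The pseudocount shrinks folds at this level, as the ratio of mean RPKM in WT over EV cells was 9.09 at 8 h and 7.95 at 4 h.

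Cited1 was highest in WT cells, and its HEA values lay close to EV. The 8 h libraries gave RPKM values of 18.3, 12.4 and 11.0 in WT libraries, 5.03, 4.90 and 4.78 in HEA libraries, 1.08, 2.36 and 2.53 in RA libraries and 3.27, 2.47 and 4.15 in EV libraries. RPKM values at 4 h were 7.30, 5.90 and 6.64 in WT libraries, 3.53, 3.22 and 2.47 in HEA libraries, 1.27, 0.971 and 1.64 in RA libraries and 1.07, 2.04 and 2.32 in EV libraries. HEA libraries were all above EV libraries at each time, by a narrow margin. HEA over EV was 0.53 at 8 h (adjusted p = 0.0855) and 0.66 at 4 h (adjusted p = 0.0372), with an SE of 0.25. The 4 h call was lost in 7 of its alternatives, over which the adjusted p ran from 0.0230 to 0.224: its adjusted p was 0.0612 by voom on recovered reads, 0.0765 in a fit of the HEA and EV libraries of 4 h alone, 0.0618 with no filter and 0.0621 after quantile normalisation. It was 0.224 without EV replicate 1, 0.119 without HEA replicate 1 and 0.0963 without HEA replicate 2. At 8 h the fit of the HEA and EV libraries alone gave an adjusted p of 0.0233, and the authors' deposited table gives 0.0751 at 8 h and 0.130 at 4 h. HEA over RA was higher at both times, by 1.17 at 8 h (adjusted p = 0.000708) and 1.00 at 4 h (adjusted p = 0.00276).

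**Figure D2:**
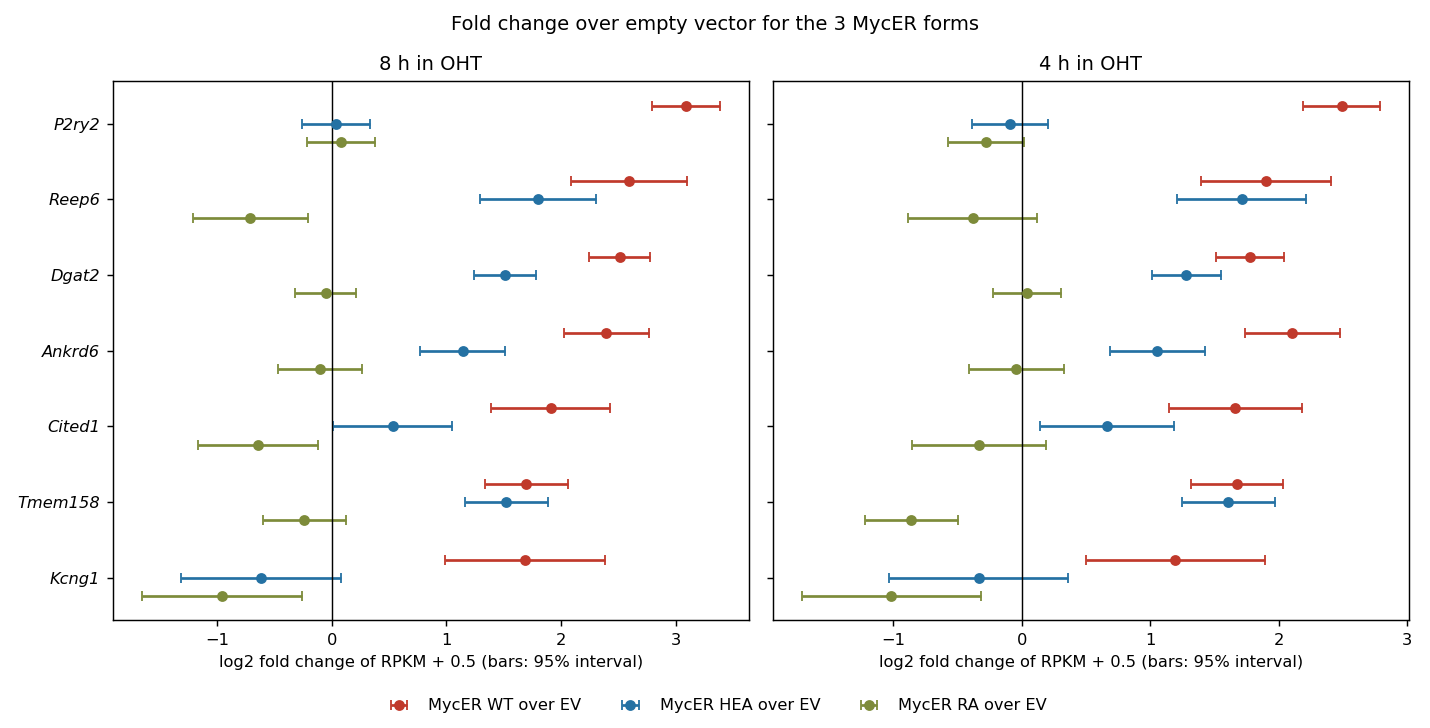
Log2 fold change over EV of WT (red), HEA (blue) and RA (olive), with 8 h on the left and 4 h on the right; points are fitted values and bars are 95% intervals. P2ry2 and Kcng1 have HEA points near or below 0 (0.04 and -0.62 at 8 h), and Tmem158 has nearly equal WT and HEA points (1.70 and 1.52 at 8 h).

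Over the set, HEA over EV called 4 of the 7 genes higher at 8 h, Reep6, Dgat2, Ankrd6 and Tmem158, and these with Cited1, 5 of 7, at 4 h. Of all tested genes, 20.2% were called higher at 8 h and 17.7% at 4 h. None of the 7 was called lower, against 27.5% of all genes at 8 h and 25.5% at 4 h. The median fold change of the 7 was 1.14 at 8 h and 1.06 at 4 h, beside -0.05 and -0.06 for all tested genes. HEA libraries lay wholly above EV libraries in 5 of the 7 at both times, as 27.2% of all genes did at 8 h and 20.2% at 4 h, and wholly below in 1, Kcng1, at 8 h, as 37.0% did. In HEA over RA, the 5 genes other than P2ry2 and Kcng1 were called higher at both times, with 17.9% of all genes called higher at 8 h and 18.0% at 4 h. These comparisons share their HEA libraries, and the EV and RA libraries had a part in choosing the genes for low values there.

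The rises in WT cells, which chose the genes, ranged from 1.69 for Kcng1 to 3.09 for P2ry2 at 8 h and from 1.19 for Kcng1 to 2.49 for P2ry2 at 4 h. All 7 had every WT library above every EV library at both times, where 22.4% of tested genes did so at 8 h and 16.1% at 4 h. The same held against RA, with 22.5% of tested genes at 8 h and 17.7% at 4 h. At 8 h, P2ry2, Reep6, Dgat2 and Ankrd6 ranked 2, 4, 7 and 8 among 12268 fold changes. Cited1, Tmem158 and Kcng1 ranked 25, 41 and 44. WT over HEA varied widely among the genes. In the order of their 8 h values, P2ry2 came first with 3.05 at 8 h and 2.59 at 4 h, then Kcng1 with 2.31 and 1.53, Cited1 with 1.38 and 1.00, Ankrd6 with 1.25 and 1.05, Dgat2 with 1.00 and 0.50, Reep6 with 0.80 and 0.19, and Tmem158 with 0.17 and 0.07. At 4 h Ankrd6 was above Cited1, by less than their SEs. All WT libraries were above all HEA libraries in 6 of the 7 at 8 h, where 28.3% of all genes were, and in 5 of the 7 at 4 h, where 26.9% were.

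RA cells stayed at or below EV cells for most of the set, though RA entered the choice. The median RA over EV fold change was -0.24 at 8 h and -0.33 at 4 h, and 1 of the 7 was above 0 at each time. The RA libraries lay wholly below the EV libraries for Reep6 and Kcng1 at 8 h, as did 17.8% of all genes, and for P2ry2, Tmem158 and Kcng1 at 4 h, as did 10.8%.

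Time in OHT separated the genes again. In WT cells Reep6 was 0.99 higher at 8 h than at 4 h and Cited1 0.99 higher, with mean RPKM of 18.5 ± 4.5 at 8 h and 8.98 ± 1.34 at 4 h for Reep6, and 13.9 ± 3.9 and 6.61 ± 0.70 for Cited1 (SD, n = 3 each). Dgat2 was 0.49 higher and Ankrd6 0.46 higher, and these 4 genes had every 8 h library above every 4 h library, as 13.5% of all genes did. Kcng1 (0.62), P2ry2 (0.14) and Tmem158 (-0.27) overlapped between the times. Cited1 was also 0.74 higher at 8 h than at 4 h in EV cells, so a rise with time was present without MycER as well. In HEA cells, the comparison fully outside the choice of genes, limma called 0 of the 7 between 8 h and 4 h, with 3.33% of all genes called. At an unadjusted p under 0.05 there were 3 of the 7, namely Cited1 (0.61, adjusted p = 0.197), P2ry2 (-0.33, adjusted p = 0.223) and Tmem158 (-0.38, adjusted p = 0.249), and voom also called 0. No change of the HEA over EV difference between 8 h and 4 h was called for any of the 7 (adjusted p = 1 for each, with differences between -0.28 and 0.23), and 0.0163% of all genes were called.

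Among the relatives of each gene, some rose, some fell and many were not called. Of 7 other P2Y receptor genes, P2ry12 and P2ry14 passed the filter. P2ry12, a Gi-coupled receptor for ADP, fell in WT over EV at 8 h by 0.76 (adjusted p = 0.0147). At 4 h its WT over EV value was -0.38 (adjusted p = 0.237). It also fell in HEA over EV, by 0.89 at 8 h (adjusted p = 0.00353) and 0.78 at 4 h (adjusted p = 0.00989). Mean RPKM at 8 h was 0.404 ± 0.259 in WT cells, 0.534 ± 0.27 in RA cells and 1.00 ± 0.25 in EV cells. Only the EV means of P2ry12 reached 1 RPKM, the level of the filter. The 5 untested P2Y genes reached at most 0.468 RPKM. WT over EV at 8 h called 15.2% of all genes higher and 20.1% lower. Of 3 tested P2X channels, P2rx5 was at -0.12 at 4 h (adjusted p = 0.768) and rose by 0.85 at 8 h (adjusted p = 0.0115). Among 12 tested enzymes of extracellular nucleotides 3 rose and 3 fell, with the nucleotidase genes Entpd6 at 0.68 (adjusted p = 6.91e-06) and Entpd5 at 0.57 (adjusted p = 0.0111), and Enpp2, the gene of autotaxin, at -0.76 (adjusted p = 0.00391). Among 13 Gq and calcium signalling genes 3 rose and 4 fell. Itpr1, a calcium channel of the endoplasmic reticulum opened by inositol trisphosphate, rose by 1.04 (adjusted p = 1.98e-06), and the protein kinase C genes Prkcd (-0.86, adjusted p = 2.56e-07) and Prkca (-0.26, adjusted p = 0.00456) fell.

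In the list of REEP and membrane-shaping genes of the endoplasmic reticulum, 1 of 10 rose and 4 fell in WT over EV at 8 h. Reep5 (-0.26, adjusted p = 0.00087), Arl6ip1 (-0.36, adjusted p = 0.00356) and Atl3 (-0.30, adjusted p = 0.00551) fell by small amounts, from levels of 49.6, 54.5 and 41.3 RPKM in WT cells against 59.4, 69.9 and 50.8 RPKM in EV cells. Of 22 tested genes of triglyceride synthesis and storage, 4 rose and 6 fell. Gpam, the glycerol-phosphate acyltransferase of the first step, rose by 0.71 (adjusted p = 5.36e-07), Fitm2, of lipid droplet formation, by 0.48 (adjusted p = 5.3e-06), and Plin3, a lipid droplet coat protein, fell by 1.28 (adjusted p = 8.4e-06). Dgat1 and Agpat2 were added after their values were seen. Dgat1, which catalyses the same step as Dgat2, averaged 27.5 ± 1.6 RPKM in WT cells, 84.4 ± 2.4 RPKM in HEA cells and 32.6 ± 1.3 RPKM in EV cells at 8 h. It rose in HEA over EV by 1.36 (adjusted p = 2.73e-09) and was at -0.24 in WT over EV (adjusted p = 0.0714). Agpat2, an acyltransferase earlier in the path, rose in HEA over EV at 8 h by 1.44 (adjusted p = 7.72e-09) and was at 0.17 in WT over EV (adjusted p = 0.267).

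**Figure D3:**
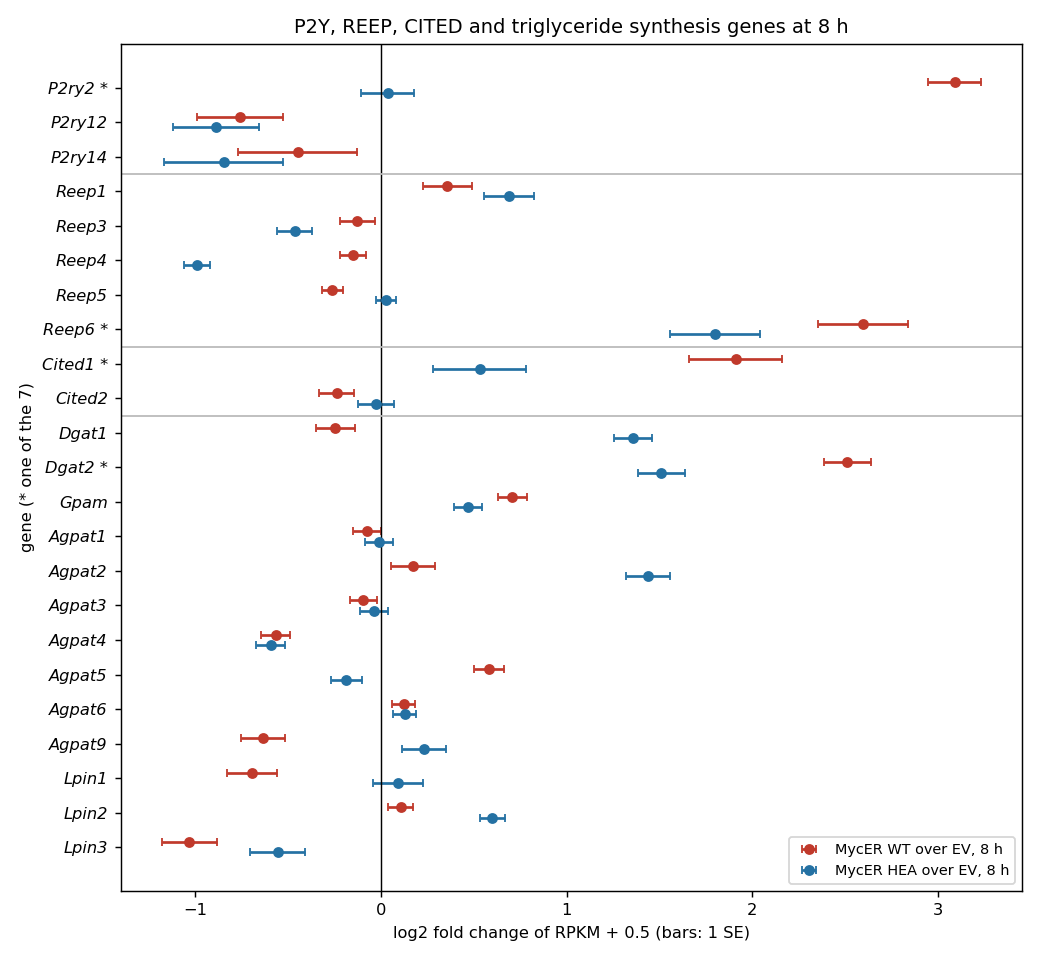
Log2 fold change at 8 h over EV in WT (red) and HEA (blue) for tested P2Y, REEP, CITED and triglyceride synthesis genes; bars are 1 SE and asterisks mark P2ry2, Reep6, Cited1 and Dgat2. Those 4, chosen by their WT values, have the rightmost WT points of their blocks, while Dgat1 and Agpat2 lie at 1.36 and 1.44 in HEA.

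Among 24 tested Wnt and planar polarity genes, 5 rose and 6 fell in WT over EV at 8 h. Prickle1, a planar polarity gene, rose by 1.92 (adjusted p = 1.69e-08), with 5.55 ± 0.67 RPKM in WT cells and 1.09 ± 0.06 RPKM in EV cells, and in HEA over EV by 1.09 (adjusted p = 9.66e-06). The Wnt receptor gene Fzd7 rose by 0.88 (adjusted p = 1.94e-07) and in HEA by 0.58 (adjusted p = 1.65e-05). Fzd4 rose by 1.52 in WT (adjusted p = 1.94e-07) and was at -0.02 in HEA (adjusted p = 0.921). Its mean in RA cells was also above EV cells, with 8.93 and 4.66 RPKM at 8 h and 8.39 and 5.61 RPKM at 4 h. No test of RA over EV is given for this gene. The list of CITED partners and relatives had 5 tested genes, among them Tfap2a, a transcription factor that CITED proteins assist. Tfap2a was at -0.19 at 4 h (adjusted p = 0.552) and rose by 0.62 at 8 h (adjusted p = 0.0336), and Cited2 was at -0.24 at 8 h (adjusted p = 0.0577). In the list of Ras feedback and senescence genes, 1 of 17 rose and 6 fell. Spry1, an inhibitor of Ras signalling, rose by 0.97 (adjusted p = 5.65e-07) and in HEA by 0.93 (adjusted p = 4.76e-07). Cdkn1a, the cell cycle inhibitor p21, fell by 1.401 in WT (adjusted p = 0.000289) and rose by 2.21 in HEA (adjusted p = 9.21e-07). Spred3 fell by 0.82 in WT (adjusted p = 0.00109).

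General Myc targets of ribosome building and growth rose in WT cells and fell or were not called in HEA cells. In WT over EV at 8 h 14 of 16 rose and none fell, for example Polr1b, a subunit of RNA polymerase I, at 0.82 (adjusted p = 2e-08), Rrp9 at 0.77 (adjusted p = 1.19e-07) and Slc19a1 at 0.85 (adjusted p = 1.21e-07). In HEA over EV at 8 h none of the 16 rose and 7 fell, with a median of -0.17, and Polr1b fell by 0.60 (adjusted p = 4.97e-07). The difference between this list and the 7 genes was not tested.

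The genes whose pattern was most like P2ry2 were ranked by Pearson correlation of log2(RPKM + 0.5) over the 8 group means, among 11732 genes. Gemin5 (r = 0.995), Zc3h8 (0.993), Dhx33 (0.992), Xpo6 (0.992) and Sox13 (0.990) came first. All of them changed less than P2ry2 in WT over EV, with the largest ratios in Zc3h8 and Sox13. At 8 h Zc3h8 had 31.4 ± 4.6 RPKM in WT cells against 9.82 ± 0.87 RPKM in EV cells. Sox13 had 2.67 ± 0.65 RPKM in WT cells against 0.627 ± 0.143 RPKM in EV cells. Gemin5, a gene of the SMN complex, had 54.2 ± 1.4 RPKM in WT cells and 36.1 ± 0.3 RPKM in EV cells. The closest to the mean of the 7 genes were Minpp1 (r = 0.988), Ccdc137 (0.986), Ica1 (0.986), Unc13a (0.985) and Top1mt (0.985). Ica1 averaged 13.6 ± 0.9 RPKM in WT cells, 5.76 ± 0.55 RPKM in HEA cells, 2.38 ± 0.50 RPKM in RA cells and 2.87 ± 0.29 RPKM in EV cells at 8 h, the same order of WT and HEA as in Dgat2. The high points of these profiles come from the same WT libraries, so the correlations are descriptions and carry no test. Within the 7, r over the 8 group means ran from 0.608 between P2ry2 and Tmem158 to 0.973 between Dgat2 and Ankrd6, with 0.914 between P2ry2 and Kcng1.

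**Figure D4:**
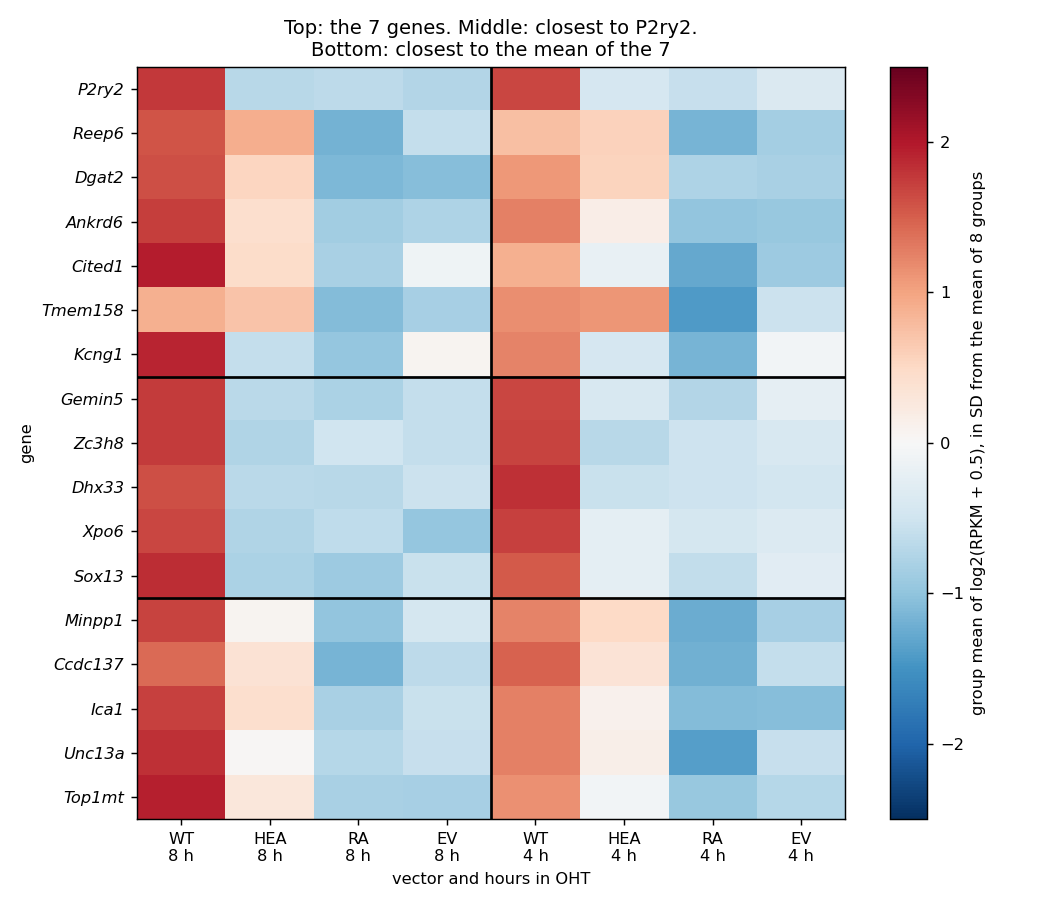
Group means of log2(RPKM + 0.5) in SD from the mean of the 8 groups (red above, blue below), with 8 h columns on the left and 4 h on the right; rows are the 7 genes, the 5 closest to P2ry2 and the 5 closest to the mean of the 7. The P2ry2 block is red in WT columns only, as its r values of 0.990 to 0.995 describe, while Reep6, Dgat2, Ankrd6 and Tmem158 are also red or pale in HEA columns.

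Of these 10 genes, 9 had RefSeq windows, and 2 of the 9 held CACGTG, beside 11.9% of the tested genes with a window. Both are shown with the E-box in capitals to set beside P2ry2. The Dhx33 window lies at chr11:71004383-71004682 on the minus strand of GRCm38.p6 and the Ica1 window at chr6:8778435-8778734 on the minus strand.
Dhx33: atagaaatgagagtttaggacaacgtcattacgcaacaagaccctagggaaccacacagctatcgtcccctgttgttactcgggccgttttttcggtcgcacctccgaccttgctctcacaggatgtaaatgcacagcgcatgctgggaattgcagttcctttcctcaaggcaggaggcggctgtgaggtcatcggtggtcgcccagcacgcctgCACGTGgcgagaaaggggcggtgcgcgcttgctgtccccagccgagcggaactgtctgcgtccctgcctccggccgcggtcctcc
Ica1: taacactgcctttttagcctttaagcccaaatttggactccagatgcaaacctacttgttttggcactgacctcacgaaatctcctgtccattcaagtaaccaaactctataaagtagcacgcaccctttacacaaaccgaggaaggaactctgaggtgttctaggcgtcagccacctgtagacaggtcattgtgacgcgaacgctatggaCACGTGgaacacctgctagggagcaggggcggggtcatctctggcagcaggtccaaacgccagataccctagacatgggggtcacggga
The E-box begins 35 bases before the Dhx33 start and 39 bases before the Ica1 start, and 18 bases before the P2ry2 start. Dhx33, an RNA helicase of ribosome building, averaged 40.2 ± 2.4 RPKM in WT cells and 30.2 ± 1.3 RPKM in EV cells at 8 h. Among these E-box genes, HEA means lay near EV in P2ry2 and Dhx33 and between WT and EV in Ica1. Dhx33, Zc3h8 and Xpo6 were picked for likeness to P2ry2 over group means that include HEA and EV. Ica1 was picked in the same way for likeness to the mean of the set. Their HEA levels relative to WT and EV were thus largely set by the choice, with or without CACGTG, and are descriptions only. HEA means near EV were also found without CACGTG, in Zc3h8 (9.16 RPKM in HEA cells and 9.82 RPKM in EV cells at 8 h) and Xpo6 (18.8 RPKM in HEA cells and 17.9 RPKM in EV cells), whose windows held CGCGTG. Unc13a held CACGCG and Minpp1 CATGTG, the windows of Gemin5, Sox13 and Ccdc137 held none of the motifs, and the relation of motif to pattern was not tested.

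The genes nearest to P2ry2 by fold change in WT over EV, leaving out the other members of the set, were Mir1900, Slc38a3 and Mir339 at 8 h, at ranks 3, 5 and 6. Slc38a3, a glutamine transporter, had 2.91 ± 1.03 RPKM in WT cells and 0.0578 ± 0.0512 RPKM in EV cells, with a fold change of 2.57 that the pseudocount lowers. The microRNA genes were listed at 0 in EV cells and varied widely in WT cells (4.49 ± 3.98 RPKM for Mir1900 and 2.54 ± 1.00 RPKM for Mir339), so their fold changes depend on the pseudocount. The nearest at 4 h were Mir3474 and Mir3067, with SDs of 3.85 and 3.86 RPKM in WT cells, and Rasl11a, a Ras-like GTPase gene, with 27.4 ± 5.6 RPKM in WT cells and 5.53 ± 0.72 RPKM in EV cells.

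The genes beside the 7 on the chromosome were taken as the 2 on each side in RefSeq order. Of 28 such places, 19 held tested genes. In WT over EV at 8 h, 4 of the 19 rose and 2 fell, where 15.2% of all genes were called higher and 20.1% lower. The 4 that rose were Fchsd2 beside P2ry2 (0.52, adjusted p = 0.00124), Pcsk4 beside Reep6 (1.32, adjusted p = 2.28e-06), Mdn1 near Ankrd6 (0.44, adjusted p = 0.00189) and Dpm1 near Kcng1 (0.55, adjusted p = 0.0358). Adamtsl5, on the other side of Reep6, fell by 0.60 (adjusted p = 0.00927), and Lyrm2 beside Ankrd6 fell by 0.70 (adjusted p = 0.00475). Pcsk4 differed from Reep6 in HEA cells, where it averaged 1.57 RPKM at 8 h, against 10.6 RPKM in WT cells and 3.93 RPKM in EV cells. P2ry6, the receptor gene beside P2ry2, averaged 0.0910 RPKM in WT cells and 0.0356 RPKM in EV cells at 8 h and was not tested. In GENCODE vM21 no gene overlapped P2ry2, Reep6, Dgat2, Cited1, Tmem158 or Kcng1, and 1 pseudogene on the opposite strand overlapped Ankrd6.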

How the data were processed

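Total RNA of 24 libraries was sequenced after preparation with a stranded total RNA kit, per the labels' protocols. The submitters' processing notes name TopHat2 2.0.8, SAMtools, featureCounts 1.4.5-p1 and DESeq2, and mm9 as the build. Neither their order nor the strand setting is stated there. The authors deposited RPKM per gene and library, and a table of comparisons against EV holding baseMean (mean normalised reads), log2 fold changes and their SE, a score (the test statistic, not used) and p-values, per the file headers.

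RPKM is no count, so limma 3.58.1 (R 4.3.3) with a trend was fitted to log2(RPKM + 0.5) for genes with at least 1 RPKM in at least 3 libraries. All 24 libraries entered a single fit of 8 group means with 16 residual degrees of freedom. Benjamini-Hochberg adjustment ran over all 12268 genes, with 0.05 as the threshold. The pseudocount understates folds of low genes. Whole reads were recovered from the steps of the RPKM values within 0.01 read for 100% of values, with baseMean setting the scale, and served for voom. Libraries of a group differed beyond counting noise (chi-square per degree of freedom 1.43 to 17.8). The fit was tested on simulated data.

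Python 3.11.15 with numpy 2.4.6, pandas 2.3.3 and matplotlib 3.10.9 was used for the rest. The 7 genes, the gene lists and the tests were chosen with earlier results of these data known. Genes named are the 7, Myc and Esr1, up to 3 called genes per list with the smallest p in WT over EV at 8 h, the 5 most like P2ry2 and the 5 most like the mean of the 7, the 3 other genes nearest to P2ry2 by fold change in WT over EV at each time, and others where said. The alternatives were pseudocounts of 0.1 and 1, no filter, median centring, quantile normalisation, a fit of only the groups compared, voom, a replicate block, and leaving out libraries. The same-numbered libraries did not pair.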

Additional observations from a re-analysis of the deposited data

How the results depend on the processing

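The 35 tested results of the 7 genes in HEA over EV, HEA over RA and HEA 8 h over 4 h gave 525 values over their alternatives. Of these, 516 kept their direction or stayed uncalled and kept their side of the threshold, 7 lost the 4 h call of Cited1 in HEA over EV, 2 gained a call (Cited1 and Kcng1 in HEA over EV at 8 h in the fit of those groups alone), and none reversed. The number of the 7 called in HEA over EV was 4 at 8 h and 4 to 5 at 4 h when libraries were left out in turn, and the number in HEA over RA was 5.

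The size of folds depended on how low values were treated. The median over the 7 in WT over EV at 8 h was 2.40, and 1.96 with a pseudocount of 1. In WT over RA it was 2.56 at 8 h, 3.15 with a pseudocount of 0.1 and 3.39 by voom, and at 4 h it was 2.21, with 2.68, 1.74 and 2.70 under a pseudocount of 0.1, a pseudocount of 1 and voom. In EV cells the median for 8 h over 4 h was 0.12, and it ran from -0.20 (without EV replicate 1 of 4 h) to 0.11 when libraries were left out. Counts over all genes moved more. WT over EV at 4 h called 3196 genes, 1112 in a fit of those groups alone and 2040 (without WT replicate 3) to 3479 with libraries left out, and 52 genes of the lists, 27 in that fit. HEA at 8 h over 4 h called 409 genes, 647 after quantile normalisation, 2 in the fit of those groups alone, 938 without the 3 farthest libraries and 105 to 618 with libraries left out, moving by over 1.5 times without HEA replicates 2 or 3 of either time. The cause was not tested.

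Same-numbered libraries did not deviate together (correlations of -0.598 to 0.407, with none of the 16 comparisons above 0.1 in every pair). A replicate block left the counts of the 7 genes called at 4 and 5 in HEA over EV at 8 h and 4 h, changed no other call of the 7, and called 4233 genes in WT over EV at 8 h against 4324 without it. Kcng1 had 5 to 18 reads in RA libraries, and its WT over EV value at 4 h, 1.19, ran from 0.87 (without EV replicate 1) to 1.53 (without EV replicate 2) with libraries left out.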
